A study of Homo sapiens with 6 samples.

Results

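The human mitochondrial genome is a small circular DNA that carries 37 genes: 13 for subunits of the respiratory chain and ATP synthase, 2 for the ribosomal RNAs of the mitochondrial ribosome and 22 for transfer RNAs. All 37 were found by their symbols, which begin with MT-, among the 59008 gene symbols of the deposited table. The RNA came from Hey and SKOV3, established lines grown from human ovarian tumours. Each line gave 3 libraries, of untreated parental cells, of polyploid giant cancer cells (PGCCs) and of daughter cells, so that each line and state has 1 library among the 6. PGCCs had been exposed to 500 nM of the microtubule drug paclitaxel for 16 h and left to recover for 3 days by the treatment labels; the title of the SKOV3 PGCC library gives day 7 instead. Daughter cells had received the same exposure and 30 days of recovery, and the titles name a single clone for each line. Hey cells were grown in MEM Eagle and SKOV3 cells in RPMI-1640 medium, so line and medium cannot be told apart. No library had a replicate, so single differences carry no error and no p-value, and each comparison is repeated only by the other line. Where 3 values of a line follow each other, they are for parental cells, PGCCs and daughter cells in that order.

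Mitochondrial DNA is read from both strands into long precursors that run across many genes. In most places a tRNA lies between neighbouring genes, and enzymes that cut out the tRNAs release the mRNAs and rRNAs, a scheme known as tRNA punctuation. Most mitochondrial mRNAs then receive a short poly(A) tail, and a few share 1 molecule with their neighbour. The heavy-strand precursor, as it is usually called, gives 12 of the 13 mRNAs and both rRNAs, whereas MT-ND6 and 8 tRNAs are read from the opposite strand. The encoded proteins work beside many more subunits encoded in the nucleus, which makes the balance between both genomes a common subject in cancer cell metabolism.

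The values are transcripts per 1000000 (TPM), an abundance per transcript length scaled within each library, as the authors deposited them. The deposited columns summed to between 911825 and 920497 TPM, and TPM keeps no read counts. The methods of the study state nearly equal mapped totals for the libraries, but the number of reads behind a single value is not known here. Changes are given as differences of log2(TPM + 1) between libraries, and a gene was called higher or lower at a difference of 1 or more, which is a 2-fold change. Of 8 epithelial and ovarian markers, 4 lay above 1 TPM in every library (the keratin genes KRT7, KRT8 and KRT18 and the lineage factor gene PAX8), and the 8 summed to between 1091 and 3295 TPM. KRT19, EPCAM and MUC16, further epithelial markers, were at no more than 3.60, 1.43 and 0.0322 TPM in Hey. In SKOV3, KRT19 and EPCAM were at 80.2 and 8.15 TPM or more, and MUC16 was at 0.0056 TPM in daughter cells. WT1, the last of the 8, lay between 0.530 and 4.10 TPM in all 6 libraries. Sums of the markers of other cell types reached 27.3 TPM for 6 fibroblast genes, 69.3 TPM for 4 leukocyte genes and 48.8 TPM for 3 endothelial genes, and CD3E and HBB were listed at 0 throughout; nearly all of the leukocyte and endothelial sums came from CD68 and CDH5.

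The tRNA genes were not seen at all. Each of the 22 was listed at 0 in all 6 libraries, while the 15 other genes were above 0 in all 6, so the values below cover the 13 mRNAs and 2 rRNAs. The tRNA gene MT-TG (glycine) shows the contrast, since it lies with no gap between MT-CO3 and MT-ND3. In the hg38 reference its position is chrM:9991-10058, and the stretch chrM:9976-10073 on the plus strand reads as follows, with the 68 bases of MT-TG in capitals and 15 bases of each neighbour in lower case.
CO3-TG-ND3: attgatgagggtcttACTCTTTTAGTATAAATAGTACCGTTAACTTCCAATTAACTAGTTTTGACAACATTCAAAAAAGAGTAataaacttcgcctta
MT-CO3, to the left of the capitals, had between 3239 and 12914 TPM in the 6 libraries, and MT-ND3, to the right, between 2311 and 6539 TPM. The 22 tRNA genes are 59 to 75 bases long in the annotation. What part their length, the RNA extraction or the quantification has in the zeros was not tested, and a TPM of 0 does not show that the tRNAs were absent from the cells.

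**Figure D1:**
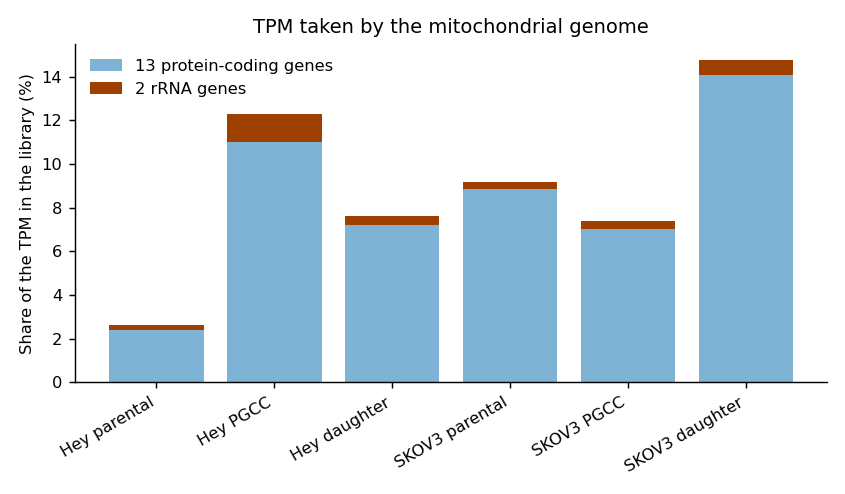
Share of the TPM of each library (y axis, percent) taken by the 13 mitochondrial mRNAs (blue) and the 2 rRNAs stacked on them (brown), for the 6 libraries on the x axis, 1 bar per library with no replicate. The mRNA part is 2.42% in Hey parental cells and 11% in Hey PGCCs, and it is largest, 14.1%, in SKOV3 daughter cells.

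The summed TPM of the 13 mRNAs was 4.51 times higher in PGCCs than in parental cells of Hey, and 0.794 times that of parental cells in SKOV3. In daughter cells it was 2.96 times that of parental cells in Hey and 1.59 times in SKOV3. The mRNAs alone took 2.42%, 11.0% and 7.20% of the TPM in Hey and 8.84%, 7.00% and 14.1% in SKOV3. Hey parental cells thus stood apart at the low end, and SKOV3 daughter cells had the largest share, while the order of PGCCs and daughter cells was opposite in the lines. In bulk RNA such as this, fewer cells of a kind and less RNA per cell cannot be told apart, and a larger mitochondrial share and a smaller amount of all other RNA cannot be told apart either.

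Mitochondrial mRNAs were among the most abundant RNAs measured. Between 8 and 12 of the 20 genes with the highest TPM were mitochondrial in every library except Hey parental cells, where the number was 0 and the top gene was EEF1A1, a translation elongation factor, at 20251 TPM. MT-ATP8 was the top gene of the whole table in Hey PGCCs, SKOV3 parental cells and SKOV3 daughter cells, at 16242, 22847 and 21539 TPM. The order of the 15 genes was much the same from library to library. Over all pairs of libraries the Spearman correlation across these 15 genes lay between 0.775 and 0.986, which describes genes of shared length and base composition and is no test.

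**Figure D2:**
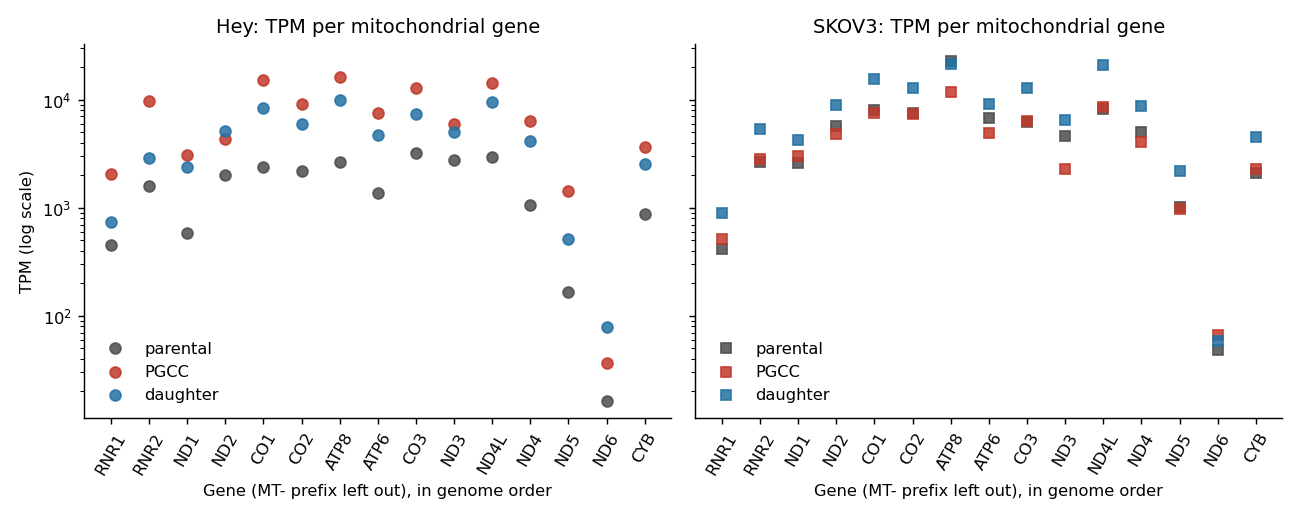
TPM (y axis, log scale) of the 13 mRNA and 2 rRNA genes in genome order (x axis), with Hey on the left and SKOV3 on the right and 1 point per library (grey, parental cells; red, PGCCs; blue, daughter cells). In Hey the grey points are lowest for all 15 genes, in SKOV3 the blue points are highest for all but MT-ATP8 and MT-ND6, and MT-ND6 lies lowest in every library, between 16.3 and 78.9 TPM.

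MT-CO1, MT-CO2 and MT-CO3 encode the catalytic core of cytochrome c oxidase (complex IV), the enzyme that passes electrons to oxygen. MT-CO1 (chrM:5904-7445) had 2366, 15350 and 8379 TPM in Hey and 8019, 7475 and 15591 TPM in SKOV3. Hey PGCCs and SKOV3 daughter cells were thus alike and highest, and Hey parental cells were lowest. MT-CO2 had 2214, 9222 and 5918 TPM in Hey and 7552, 7355 and 12794 TPM in SKOV3. MT-CO3 had 3239, 12914 and 7409 TPM in Hey and 6249, 6414 and 12849 TPM in SKOV3. SKOV3 PGCCs lay close to their parental cells for all 3 genes, with differences of -0.10, -0.04 and 0.04 on the log2 scale.

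MT-ATP6 and MT-ATP8 encode subunits of the membrane part of ATP synthase (complex V), through which protons flow. They are translated from 1 shared mRNA, and their reading frames overlap by 46 bases. The overlap, chrM:8527-8572 on the plus strand of hg38, is shown because the reads of both genes meet in it; the first codon of MT-ATP6 and the stop codon of MT-ATP8 are in capitals.
ATP8-ATP6: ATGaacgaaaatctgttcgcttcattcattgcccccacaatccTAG
MT-ATP8 had 2628, 16242 and 9995 TPM in Hey and 22847, 11771 and 21539 TPM in SKOV3. MT-ATP6 had 1378, 7514 and 4730 TPM in Hey and 6742, 4971 and 9190 TPM in SKOV3. MT-ATP8, a gene of 207 bases, was therefore listed above MT-ATP6, of 681 bases, in every library although both lie on the same mRNA. The ratio of MT-ATP8 to MT-ATP6 was between 1.91 and 2.37 in 5 libraries and 3.39 in SKOV3 parental cells. MT-ATP8 took 28.3% of the TPM of the 13 mRNAs in that library and from 11.8% to 18.4% in the other 5.

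MT-ND1 to MT-ND6 and MT-ND4L encode the membrane subunits of NADH dehydrogenase (complex I), the entry point of electrons from NADH. MT-ND4L and MT-ND4 also share an mRNA and overlap by 7 bases, given in capitals in chrM:10748-10778 on the plus strand.
ND4L-ND4: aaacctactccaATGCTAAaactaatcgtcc
MT-ND4L had 2923, 14202 and 9456 TPM in Hey and 8159, 8546 and 21171 TPM in SKOV3. MT-ND4 had 1053, 6358 and 4157 TPM in Hey and 4984, 4046 and 8773 TPM in SKOV3. As for the ATP synthase pair, the shorter gene of the shared mRNA was listed higher, with a ratio between 1.64 (SKOV3 parental cells) and 2.78 (Hey parental cells). TPM divides by an effective transcript length, which is hard to estimate for genes as short as these (207 and 297 bases). Its part in these ratios was not tested.

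MT-ND5 (chrM:12337-14148, plus strand) varied most among the 15 genes, by 13.3 times between the lowest and the highest library. It had 166, 1445 and 511 TPM in Hey and 1010, 965 and 2198 TPM in SKOV3. MT-ND3 varied least, by 2.83 times, with 2781, 5952 and 5017 TPM in Hey and 4601, 2311 and 6539 TPM in SKOV3. MT-ND3 was the only gene of the 15 besides MT-RNR1 that was not lowest in Hey parental cells, its lowest value being that of SKOV3 PGCCs.

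MT-ND1 had 590, 3095 and 2400 TPM in Hey and 2585, 3038 and 4217 TPM in SKOV3. MT-ND2 had 1996, 4368 and 5183 TPM in Hey and 5741, 4790 and 8916 TPM in SKOV3, so that in Hey it was the only heavy-strand mRNA with a lower value in PGCCs than in daughter cells. MT-CYB encodes cytochrome b, the mitochondrially encoded subunit of complex III. Its levels were 881, 3650 and 2518 TPM in Hey and 2114, 2288 and 4502 TPM in SKOV3, with the order of states that MT-CO3 had in both lines.

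MT-ND6 (chrM:14149-14673, minus strand) is the only mRNA gene on its strand. It had 16.3, 36.3 and 78.9 TPM in Hey and 48.3, 67.2 and 58.5 TPM in SKOV3. MT-ND6 was lowest of the 15 genes in all 6 libraries, at 0.524% to 1.55% of the median of the 12 other mRNAs. Its highest library was Hey daughter cells, which were not highest for any of the other 14 genes. Whether the library kit marks the strand is not stated in the sources used here, and without strand, reads from MT-ND6 and from the precursor that crosses it in the other direction cannot be told apart.

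MT-RNR1 and MT-RNR2 encode the 12S and 16S RNAs of the small and large subunit of the mitochondrial ribosome. MT-RNR1 (chrM:648-1601) had 456, 2069 and 746 TPM in Hey and 412, 515 and 902 TPM in SKOV3. MT-RNR2 (chrM:1671-3229) had 1601, 9819 and 2880 TPM in Hey and 2638, 2849 and 5337 TPM in SKOV3. Hey PGCCs were highest for both rRNAs, by more than 1.5 times over any other library. The rRNAs were 10.6% of the mitochondrial TPM in Hey PGCCs and 8.47% in Hey parental cells, against 3.64% to 5.23% in the other 4 libraries. Because rRNA has little or no poly(A) tail and the enrichment step is not stated, the share of rRNA is that of the library and may not be that of the cell.

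When compared with parental cells, PGCCs of Hey were called higher for all 15 measured genes, where 7.67% of the 14988 genes averaging 1 TPM or more were, and for 0 lower, where 5.22% were. The median change of the 13 mRNAs was 2.28, with values from 1.10 (MT-ND3) to 3.12 (MT-ND5), beside a median of 0 over all 14988 genes. MT-RNR2 and MT-RNR1 changed by 2.62 and 2.18. The order of size was not that of the position on the genome, since the small changes of MT-ND2 (1.13), MT-ND3 (1.10) and MT-ND6 (1.11) lay among genes with changes of 1.99 or more. Relative to the median of the 13 mRNAs, MT-ND2, MT-ND3 and MT-ND6 were 1.15, 1.18 and 1.17 below it and MT-ND5 was 0.84 above it. After removal of a trend fitted to the GC content and length of nuclear genes, MT-ND3 (0.83) and MT-ND6 (0.99) fell below the 2-fold line. Nuclear noncoding RNAs moved in the same comparison, MALAT1 from 42.6 to 285 TPM and NEAT1 from 40.5 to 430 TPM upwards and RN7SL1, RN7SL2 and RMRP downwards by -1.54, -1.73 and -2.24; RPPH1 differed by -1.67, RN7SK by -0.89, and TERC was listed at 0 in both. Their part in the mitochondrial change was not tested.

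In SKOV3 the same comparison called 0 of the 15 genes higher, where 9.94% of all genes were, and 0 lower, where 4.96% were. The median change of the 13 mRNAs was -0.065, beside 0.017 over all genes. MT-ND3 (-0.99) and MT-ATP8 (-0.96) came closest to the 2-fold line, and both were past it when the libraries were scaled by the median ratio (-1.06 and -1.02). MT-ND6 had the largest positive value, 0.47. In this pair of libraries the change of nuclear genes followed their GC content, with a Spearman correlation of 0.725 across 13453 genes, a description of these libraries. The 15 mitochondrial genes have a GC content of 39.6% to 47.7%, and the 4900 nuclear genes within that range had a median change of -0.28. With the trend removed, the median of the 13 mRNAs was 0.14, so the sign of this small change rests on the setting. Of the 8 listed noncoding RNAs, RN7SK differed by 2.89, RMRP by 3.54, RPPH1 by 1.92, RN7SL1 by 1.43 and MALAT1 by -1.14. RN7SL2 was at 0.52, NEAT1 at -0.15, and TERC was listed at 0. The list was drawn up for RNAs without a poly(A) tail, but whether each of them, NEAT1 and MALAT1 included, lacked a tail was not measured. RMRP and RPPH1 were listed at 0 in SKOV3 parental cells, so their values depend on the pseudocount, and the part of these RNAs was not tested.

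**Figure D3:**
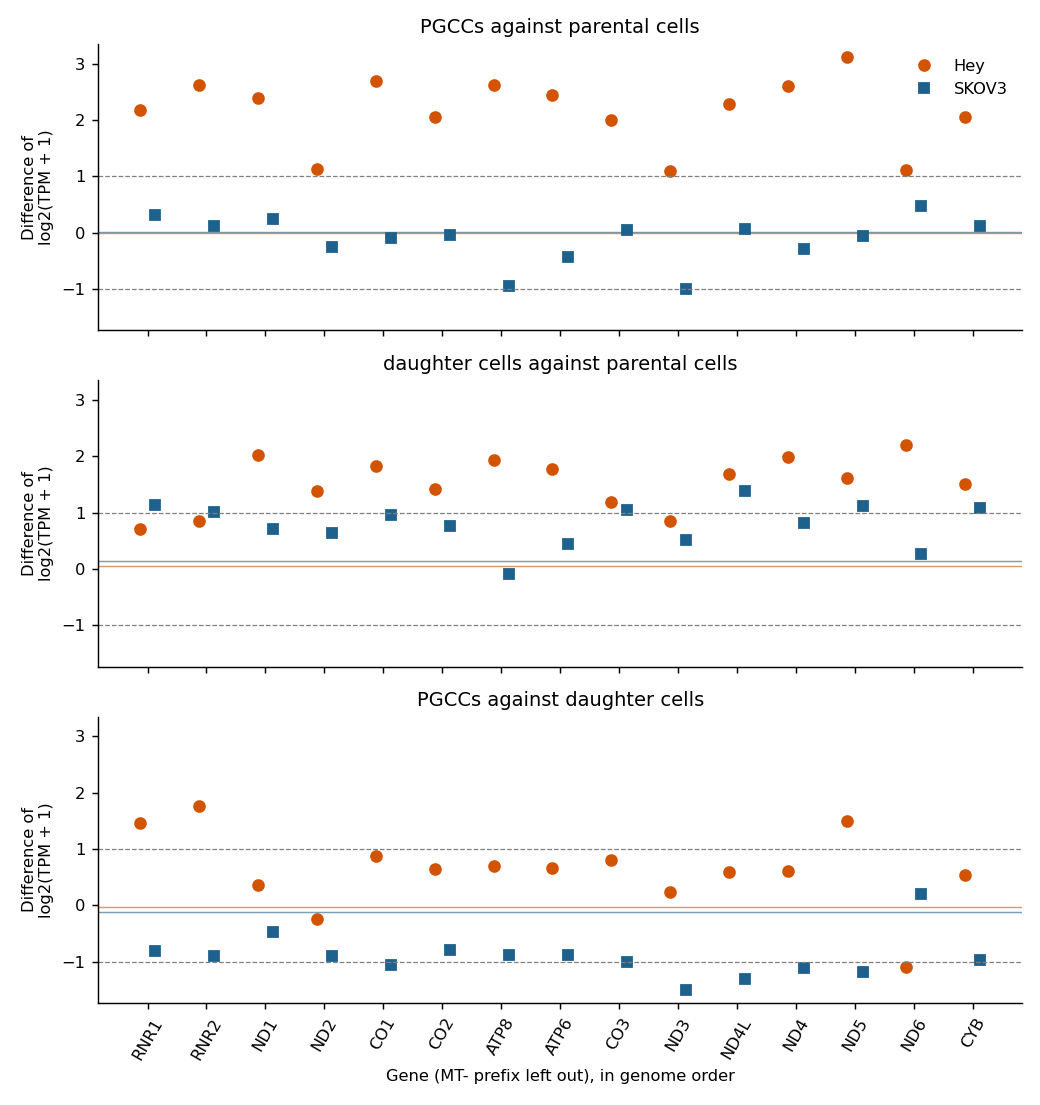
Difference of log2(TPM + 1) (y axis) for each mitochondrial gene in genome order (x axis) in the 3 comparisons, 1 point per gene and line (orange circles, Hey; blue squares, SKOV3). Dashed lines mark 2-fold and thin coloured lines the median of all 14988 genes; all 15 Hey points lie above 1 in the top panel, and in the bottom panel 13 Hey points lie above 0 where 14 SKOV3 points lie below it.

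The 2 lines differed in this comparison for every gene. The change in Hey exceeded that in SKOV3 for all 15 genes, and 8 genes had opposite signs, none of them past 2-fold in both lines. With 1 library per line and state this difference was not tested, and the shares of all genes for these 2 counts are not given here. In SKOV3 only 9 of the 15 genes kept their sign under the smaller pseudocount, the scalings and the trend removal. With the GC and length trend removed, MT-ND2 (0.08), MT-ND5 (0.14), MT-CO1 (0.04) and MT-CO2 (0.14) were positive in SKOV3. Fitted over all 6 libraries with state and cell line as terms, limma gave 0 of the 15 genes an adjusted p under 0.05 for PGCCs against parental cells, as for 0.02% of all genes, with 2 residual degrees of freedom. At an unadjusted p under 0.05 there was 1 of the 15, MT-ND1, against 2.73% of all genes. Its estimate was 1.31 (standard error 0.527), higher in both lines, with an adjusted p of 1 by limma.

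Daughter cells of Hey were called higher than parental cells for 12 of the 15 genes, where 6.31% of all genes were. The median of the 13 mRNAs was 1.69, beside 0.050 over all genes. All 15 values were positive, from 0.71 (MT-RNR1) to 2.21 (MT-ND6), and MT-ND3 (0.85) and MT-RNR2 (0.85) joined MT-RNR1 below the line. MT-ND6, among the smallest changes in Hey PGCCs, was thus the largest in Hey daughter cells. The rRNAs, at 2.62 and 2.18 in Hey PGCCs, were among the smallest in Hey daughter cells. Of the 8 listed noncoding RNAs, NEAT1 (2.07) was called higher and RPPH1 (-1.03) lower in this pair, and their part was not tested. In SKOV3 daughter cells 6 of the 15 genes were called higher, where 15.1% of all genes were, and 14 of 15 values were positive. The 6 were MT-ND4L (1.38), MT-RNR1 (1.13), MT-ND5 (1.12), MT-CYB (1.09), MT-CO3 (1.04) and MT-RNR2 (1.02). The median of the 13 mRNAs was 0.76, beside 0.15 over all genes, and MT-ATP8 was at -0.085. The SKOV3 count was 1 after median ratio scaling, with only MT-ND4L (1.16) still past the line, and 3 after quantile normalization (MT-ND5, MT-RNR1 and MT-CYB). In this pair 4 of the 8 listed noncoding RNAs were called higher and 0 lower (RMRP 2.68, RN7SK 2.43, RN7SL1 1.69 and RN7SL2 1.06). Their part was not tested.

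Both lines called MT-ND4L, MT-ND5, MT-CYB and MT-CO3 higher in daughter cells than in parental cells, and 14 of 15 genes had positive values in both. Of all genes, 6.31% were called higher in Hey and 15.1% in SKOV3, with median changes of 0.050 and 0.15. The shares of all genes called higher, or positive, in both lines are not given here. The 4 calls in SKOV3 rest on the scaling: after median ratio scaling MT-ND4L alone stayed past the line, whereas after quantile normalization MT-ND4L was at 0.39 and MT-ND5 (1.64) and MT-CYB (1.08) stayed past it. No gene was called lower in either line, where 3.73% of all genes were in Hey and 6.34% in SKOV3. In limma's fit 0 of the 15 genes had an adjusted p under 0.05 for daughter cells against parental cells, as for 0.0133% of all genes. At an unadjusted p under 0.05 there were 4, MT-ND4L, MT-ND1, MT-CYB and MT-ND6, against 3.39% of all genes. The estimate of MT-ND4L was 1.53 (standard error 0.564), higher in both lines, with an adjusted p of 1 by limma.

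Between PGCCs and daughter cells the lines moved apart. In Hey, PGCCs were called higher for MT-RNR2 (1.77), MT-ND5 (1.498) and MT-RNR1 (1.47), where 8.13% of all genes were, and lower for MT-ND6 (-1.10), where 9.95% were. The median of the 13 mRNAs was 0.61, beside -0.029 over all genes, and MT-ND2 (-0.25) was the other gene below 0. Of the 8 listed noncoding RNAs, MALAT1 (1.88) and NEAT1 (1.31) were called higher and RN7SL2 (-1.55), RMRP (-1.53) and RN7SL1 (-1.09) lower. Their part was not tested. In SKOV3, PGCCs were called lower for 6 genes, where 14.6% of all genes were, and higher for 0, where 9.25% were. These were MT-ND3 (-1.5004), MT-ND4L (-1.31), MT-ND5 (-1.19), MT-ND4 (-1.12), MT-CO1 (-1.06) and MT-CO3 (-1.002). The median of the 13 mRNAs was -0.98, beside -0.12 over all genes, and -0.37 over the 4900 nuclear genes of like GC content; with the trend removed 2 genes were called and the median was -0.71. MT-ND6 (0.19) was the only positive value. Of those 8 RNAs, RPPH1 (1.34) was called higher and 0 lower.

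Of the 15 genes, 14 had opposite signs in the lines in this comparison, the other being MT-ND2, and MT-ND5 was past 2-fold in both. The share of all genes with opposite signs is not given here, so the count cannot be called particular to mitochondrial genes. After quantile normalization the Hey values of MT-ND3, MT-ND4L and MT-CO3 were -0.083, 0 and 0. PGCCs of Hey had more MT-ND5 and less MT-ND6 than daughter cells, and the ratio of MT-ND5 to MT-ND6 was 39.8 and 6.48 in these states. SKOV3 had ratios of 14.4 in PGCCs and 37.5 in daughter cells, again with opposite orders. In limma's fit 0 of the 15 genes had an adjusted p under 0.05, as for 0% of all genes, and 0 had an unadjusted p under 0.05, against 5.06% of all genes. The smallest adjusted p by limma was 0.915, for MT-ND2.

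Untreated cells of the lines already differed. Parental cells of Hey were called lower than those of SKOV3 for 11 of the 15 genes, where 24.2% of all genes were, and higher for 0, where 11.5% were. All 13 mRNAs were lower, by a median of -1.76 beside -0.29 over all genes, from -0.73 (MT-ND3) to -3.12 (MT-ATP8). The rRNAs differed less, MT-RNR2 by -0.72 and MT-RNR1 by 0.14. Of the 8 listed noncoding RNAs, 5 were called higher in Hey, among them RMRP (4.70), RN7SK (3.66) and RN7SL1 (2.27). MALAT1 (-2.63) and NEAT1 (-2.21) were the 2 called lower. The part of the 8 in the mitochondrial difference was not tested. With all 3 states of each line in limma's fit, 0 of the 15 genes had an adjusted p under 0.05 between the lines, where 20.6% of all genes had, and 1 had an unadjusted p under 0.05, where 36.7% had. That gene was MT-ND5, at -1.37 (standard error 0.585) with an adjusted p of 0.136 by limma; it was lower in Hey in parental and daughter cells and higher in PGCCs.

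**Figure D4:**
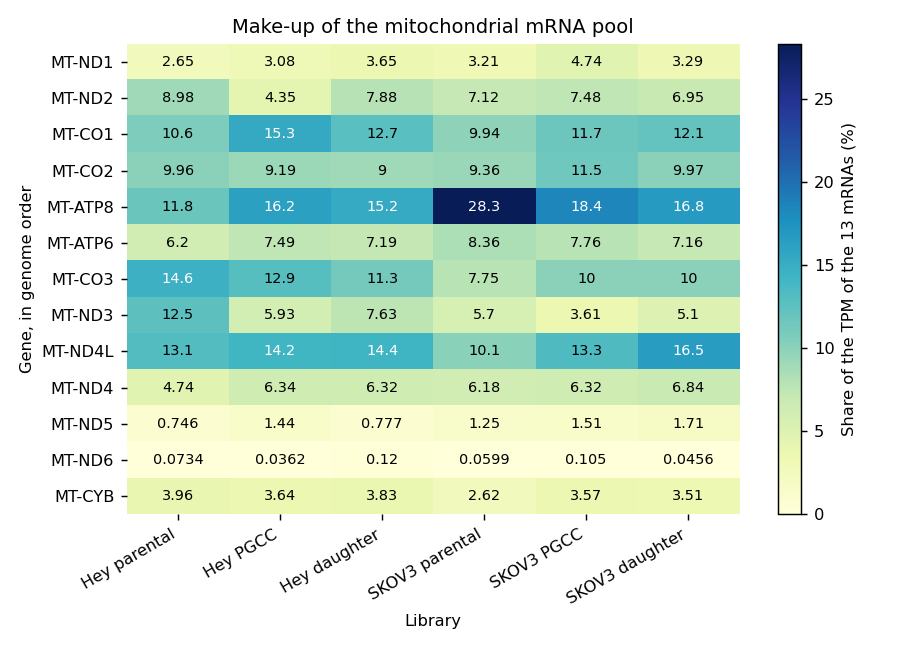
Share of the summed TPM of the 13 mitochondrial mRNAs (colour and printed value, percent) held by each gene (rows, genome order) in each of the 6 libraries (columns). MT-ATP8 stands out at 28.3% in SKOV3 parental cells, and MT-ND3 holds 12.5% in Hey parental cells and 3.61% in SKOV3 PGCCs.

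The make-up of the mitochondrial mRNA pool shows which genes departed from the common shift. Complex I genes held 42.8% of the 13-gene TPM in Hey parental cells and from 33.6% to 40.8% in the other 5 libraries. The complex IV genes held between 27.1% and 37.4%, lowest in SKOV3 parental cells and highest in Hey PGCCs. Complex V took 36.7% in SKOV3 parental cells and 18.0% to 26.1% elsewhere, which follows MT-ATP8. MT-CYB stayed between 2.62% and 3.96%. MT-ND3 held 12.5% of the pool in Hey parental cells and 5.93% in Hey PGCCs, and 5.70% and 3.61% in SKOV3, a smaller share in the PGCCs of both lines. MT-ND2 fell from 8.98% to 4.35% in Hey, yet was 7.12% and 7.48% in SKOV3. These shares do not change when all genes of a library are scaled by a common factor. Quantile normalization and the trend removal move genes by different amounts, and the shares were not recomputed under them.

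**Figure D5:**
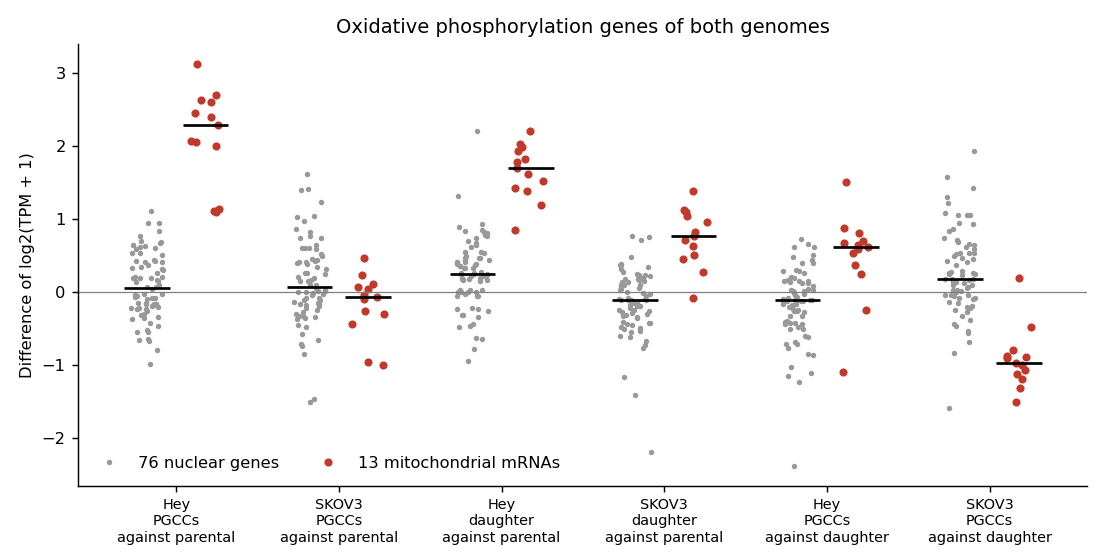
Difference of log2(TPM + 1) (y axis) of 76 nuclear genes (grey) and the 13 mitochondrial mRNAs (red) of oxidative phosphorylation in 3 comparisons and 2 lines (x axis), 1 point per gene, black bars at the medians. The red bar is at 2.28 and the grey bar at 0.056 for Hey PGCCs against parental cells, and at -0.98 and 0.18 for SKOV3 PGCCs against daughter cells.

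Complexes I, III, IV and V are built from subunits of both genomes. Of 78 nuclear oxidative phosphorylation genes listed, 76 were in the table, all averaging 1 TPM or more. In Hey PGCCs 1 of the 76 was called higher than in parental cells (NDUFB9, a complex I subunit, at 1.11, named after its value was seen) and 0 lower, where 7.67% and 5.22% of all genes were, with a median of 0.056. In SKOV3 PGCCs 6 were called higher and 2 lower, where 9.94% and 4.96% of all genes were, with a median of 0.071. In this SKOV3 pair the change of nuclear genes followed their GC content (Spearman correlation 0.725), and the trend was not removed from these nuclear values. By complex, the median change in Hey PGCCs was 0.20 for 37 complex I genes, -0.17 for 4 genes of complex II, which has no mitochondrially encoded subunit, -0.093 for 9 complex III genes, 0.095 for 11 complex IV genes and -0.14 for 15 complex V genes. In SKOV3 PGCCs these medians were 0.26, -0.25, -0.017, -0.081 and 0.010. The mitochondrial genes of complexes I, IV and V had medians of 2.28, 2.06 and 2.54 in Hey PGCCs and -0.065, -0.038 and -0.70 in SKOV3 PGCCs, and MT-CYB of complex III had 2.05 and 0.11. The ratio of the summed mitochondrial mRNAs to the summed nuclear genes was 1.68, 7.32 and 4.14 in Hey and 4.73, 3.48 and 8.12 in SKOV3. The nuclear sum varied less than the mitochondrial one, from 13244 TPM (Hey parental cells) to 18376 TPM (SKOV3 PGCCs). In daughter cells against parental cells the nuclear median was 0.25 in Hey and -0.11 in SKOV3, with 2 and 0 genes called higher (6.31% and 15.1% of all genes) and 0 and 3 lower (3.73% and 6.34%). For PGCCs against daughter cells it was -0.12 in Hey and 0.18 in SKOV3, opposite in sign to the mitochondrial median in both lines. The calls were 0 and 9 higher (8.13% and 9.25% of all genes) and 5 and 1 lower (9.95% and 14.6%). Because TPM is scaled within a library, a larger mitochondrial share lowers all other values. Its part in the opposite signs was not tested. In the SKOV3 pair nuclear changes also followed GC content (Spearman correlation 0.454), with no trend removed from these nuclear values.

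Nuclear genes that transcribe, process, degrade and copy the mitochondrial genome were followed as a list of 45, of which 44 were in the table. In Hey PGCCs 0 were called higher and 2 lower than in parental cells, with a median of -0.27, where 7.67% and 5.22% of all genes were. In SKOV3 PGCCs 5 were higher and 3 lower, with a median of -0.23, where 9.94% and 4.96% of all genes were. POLRMT, the mitochondrial RNA polymerase, had 19.0, 6.08 and 24.8 TPM in Hey and 27.3, 57.0 and 56.5 TPM in SKOV3. For POLRMT the PGCC value thus differed by -1.496 in the Hey pair and by 1.03 in the SKOV3 pair. Across nuclear genes of this SKOV3 pair, change rose with GC content (Spearman correlation 0.725). That trend was not removed from the values of the list. What part POLRMT has in the mitochondrial values was not tested. TFAM, which packages mitochondrial DNA and helps start transcription, had 110, 81.5 and 164 TPM in Hey and 61.7, 50.4 and 97.1 TPM in SKOV3. Daughter cells were highest in TFAM in both lines.

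TFB2M, which helps the polymerase open the promoter, lay between 18.9 and 28.0 TPM in all 6 libraries. TEFM, an elongation factor, had 6.04, 10.2 and 12.4 TPM in Hey and 19.8, 12.2 and 22.8 TPM in SKOV3. LRPPRC, which stabilizes mitochondrial mRNAs, lay between 64.4 and 113 TPM, with the PGCCs lowest in each line. PNPT1, the mitochondrial RNA-degrading phosphorylase, had 10.1, 4.62 and 10.9 TPM in Hey and 5.42, 3.09 and 1.52 TPM in SKOV3. DNA2, a nuclease and helicase of DNA replication, was the only gene of the list called in the same direction in PGCCs of both lines against parental cells, at -1.61 and -1.26, and with MTERF1, a transcription termination factor, it was called lower than in daughter cells in both lines, at -1.66 and -1.51 for DNA2 and -1.30 and -1.24 for MTERF1.

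Copies of mitochondrial DNA in the nuclear genome can take or lend reads. The table holds 395 such nuclear copies by their symbols, 4 of them averaging 1 TPM or more. MTATP6P1 (chr1:633696-634376) was highest, with 242, 1463 and 868 TPM in Hey and 883, 810 and 1279 TPM in SKOV3, which is 13.1% to 19.5% of the level of MT-ATP6. It has the same 681 bases in length and matches MT-ATP6 at 98.5% of positions, with 10 mismatches. The most divergent 60 bases, 116 to 175 of the copy and chrM:8642-8701, are shown with the 3 mismatched bases in capitals, since only reads across such bases separate the copy from the gene.
MT-ATP6: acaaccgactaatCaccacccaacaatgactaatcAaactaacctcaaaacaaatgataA
MTATP6P1: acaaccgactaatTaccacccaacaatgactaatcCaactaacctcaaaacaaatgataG
MTATP6P1 changed by 2.59 in Hey PGCCs and by -0.12 in SKOV3 PGCCs against parental cells, beside 2.45 and -0.44 for MT-ATP6. The next copies were far lower: MTND2P28 (chr1:629640-630683) had between 9.07 and 53.7 TPM, and MTND1P23 between 0 and 10.9 TPM. Levels of the copies and of their mitochondrial counterparts are uncertain to the extent of shared sequence. Of the 31-base words of each gene, from 1.24% (MT-RNR2) to 66.7% (MT-CO1) also occur in nuclear transcripts of the GENCODE 44 annotation, 56.9% for MT-ND2 and 3.48% for MT-ND3, while none of the words of the 22 tRNA genes do. MT-ND2 and MT-ND3 are given as the heavy-strand mRNAs with the smallest changes in Hey PGCCs. What part shared sequence has in the size of any change was not tested.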

How the data were processed

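RNA from 6 samples, 1 per cell line and state, was sequenced as paired-end reads by the study's methods. The authors cleaned the reads with fastp, quantified them on the human transcriptome (hg38) with salmon 0.14.1 and deposited TPM values, 1 per gene symbol and library. The annotation release, strandedness and bias options are not given in the sources used here. TPM values are scaled within a library, so an abundant group of genes lowers all others, and they hold no read counts. Members are the symbols starting with MT-. The members and gene lists were chosen with earlier results of these data known.

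Values were compared as log2(TPM + 1) with Python 3.11.15, numpy 2.4.6, pandas 2.3.3 and scipy 1.17.1. As a second approach limma 3.58.1 (R 4.3.3) was fitted to the 14988 genes averaging 1 TPM or more. Its terms were state and cell line, and p-values were adjusted across all genes by the Benjamini-Hochberg method. The residual spread of a gene, on 2 degrees of freedom, is the disagreement between the lines. That spread was drawn towards an intensity trend fitted over all genes, which counted as a median of 5.335 further degrees of freedom. The standard errors and p-values by limma therefore rest partly on the spread of other genes. The fold call, median ratio scaling and the limma fit were run on data with known changes put in. The simulated libraries for limma held no difference between the lines, and the GC and length trend removal was not tested in this way. The GC and length trend was a lowess fit (statsmodels 0.14.6, fraction 0.3, 2 passes) to nuclear genes. Positions, lengths and sequences come from GENCODE 44 and hg38, the build the authors name, and all 37 members matched by symbol. Alternatives were a pseudocount of 0.1, a filter on low values, median ratio, quantile and non-mitochondrial scaling, 1.5-fold and 3-fold thresholds and the trend removal, and for limma no intensity trend and each library left out in turn. The named genes are the 13 mRNAs, 2 rRNAs, 6 nuclear factors and the 3 nuclear copies with the highest mean TPM. List genes called alike in both lines and all listed noncoding RNAs are named too. Others are marked as chosen after their values were seen.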

Additional observations from a re-analysis of the deposited data

Results flagged for a closer look

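Some changes had opposite signs in Hey and SKOV3. With 1 library per line and state none of these differences was tested, and those close to 0 may be no more than the spread between libraries, which is unknown here. For PGCCs against parental cells the median change of the 13 mRNAs was 2.28 in Hey and -0.065 in SKOV3, a difference of 2.35. The Hey change exceeded the SKOV3 change on the log2 scale in MT-ND2 (1.39), MT-ND3 (2.09), MT-ND4 (2.89), MT-ND5 (3.18), MT-CO1 (2.80), MT-CO2 (2.10), MT-ATP6 (2.89) and MT-ATP8 (3.58), all positive in Hey and negative in SKOV3. For daughter cells against parental cells MT-ATP8 alone had opposite signs, with a difference of 2.01.

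For PGCCs against daughter cells the median of the 13 mRNAs was 0.61 in Hey and -0.98 in SKOV3, a difference of 1.59. The differences between the lines, Hey minus SKOV3, were as follows for the genes of opposite sign, of which MT-ND6 was the only one lower in Hey PGCCs than in Hey daughter cells: MT-ND1 (0.84), MT-ND3 (1.75), MT-ND4L (1.90), MT-ND4 (1.73), MT-ND5 (2.68), MT-ND6 (-1.29), MT-CYB (1.51), MT-CO1 (1.93), MT-CO2 (1.44), MT-CO3 (1.80), MT-ATP6 (1.55), MT-ATP8 (1.57), MT-RNR1 (2.28) and MT-RNR2 (2.67). MT-ND3, MT-ND4L and MT-CO3 were no longer positive in Hey after quantile normalization.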

How the results depend on the processing

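No paired analysis was possible because the labels give no replicate numbers, other than the limma fit itself, whose cell line term compares states within each line. Of 200 values recomputed under the alternatives, 181 kept their direction and their side of the threshold, or their count within 1.5 times. The called counts of Hey PGCCs and Hey daughter cells against parental cells were among the 181. Both counts rest on the same Hey parental library, which no rescaling replaces. With that library left out, limma's median estimate over the 15 genes went from 1.08 to 0.38 for PGCCs against parental cells. For daughter cells against parental cells it went from 1.12 to 0.47. The filter on low values removes none of the 15 measured genes, so values under it could not move. A further 40 of the 181 are limma counts, from fits with few residual degrees of freedom. The tally is therefore no measure of how firm the results are. The other 19 were these. For SKOV3 PGCCs against parental cells, 2 genes were called lower with median ratio scaling, 1 with scaling to the genes outside the mitochondrial genome and 2 at 1.5-fold, and the mRNA median was 0.137 with the GC and length trend removed. For SKOV3 daughter against parental cells, 1 gene was called higher with median ratio scaling, 3 with quantile normalization, 11 at 1.5-fold and 0 at 3-fold. For Hey PGCCs against daughter cells, 10 were called higher at 1.5-fold and 1 at 3-fold, and 0 lower with quantile normalization and at 3-fold. For SKOV3 PGCCs against daughter cells, 3 were called lower with median ratio scaling, 10 with scaling to the genes outside the mitochondrial genome, where the mRNA median was -1.10, 13 at 1.5-fold, 0 at 3-fold and 2 with the trend removed. Between parental cells 7 were called lower in Hey at 3-fold. Changes under another fold threshold follow from its construction. For the others the cause was not tested. Median ratio scaling moved the median difference of all genes between parental cells from -0.29 to -0.014 and that of SKOV3 daughter against parental cells from 0.15 to -0.015, and non-mitochondrial scaling moved that of Hey PGCCs against parental cells from 0 to 0.12 and that of SKOV3 PGCCs against daughter cells from -0.12 to -0.23. In limma's fits the count of mitochondrial genes with an adjusted p under 0.05 was 0 under every alternative run, including with each library left out in turn, where 1 residual degree of freedom remained. The table holds no counts, so no counting limit was computed for single genes.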

Other observations

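UQCRH, which encodes the hinge subunit of complex III and belongs to the nuclear list, differed most between the lines among its 76 genes. It had 607 TPM in parental cells, 635 TPM in PGCCs and 447 TPM in daughter cells of Hey, against 0.146 TPM in parental cells of SKOV3 and a listing at 0 in SKOV3 PGCCs and daughter cells. It was chosen after its values were seen. COX6C, a complex IV subunit, had 274 TPM in parental cells, 95.9 TPM in PGCCs and 59.2 TPM in daughter cells of SKOV3, changes of -1.51 and -2.19 against parental cells, and 49.3, 77.2 and 84.1 TPM in Hey. ATP5MF, an ATP synthase subunit, had 1275 TPM in Hey daughter cells against 276 and 245 TPM in parental cells and PGCCs of Hey, a change of 2.20 between daughter and parental cells. These too were chosen after their values were seen.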
